A study of Saccharomyces cerevisiae with 16 samples.

Results

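The mRNA levels of budding yeast, Saccharomyces cerevisiae, without and with the translation initiation factor eIF4B were compared gene by gene after a shift of the cultures to 37 °C. Genes were kept where the mean normalised read value over both genotypes was at least 10. All 5330 of the 5330 genes listed at 37 °C passed, the lowest mean was 17.3, and so no gene lay just outside that minimum. The comparison rests on 4 of the 16 libraries of the study, which also sequenced ribosome footprints (the mRNA fragments protected by ribosomes) and repeated the comparison at 15 °C.

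The tif3Δ strain, FJZ52, lacks TIF3, the gene of eIF4B. Its wild-type counterpart, FJZ46, carries TIF3. Each genotype is 1 strain, so that any other difference between the strains cannot be told apart from the deletion. All cultures grew in synthetic complete medium, were shifted in temperature, and met cycloheximide, an inhibitor of translation elongation, shortly before harvest. Each group had 2 libraries, described as biological replicates, and the tables hold 1 pooled log2 normalised value per gene and group. The differences below therefore have no replicate error and no test. The submitters rounded the mRNA values to 1 decimal, so a difference moves in steps of 0.1 on the log2 scale.

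As background, eIF4B stimulates the helicase eIF4A, which unwinds the leader of an mRNA while the small ribosomal subunit is loaded and scans for a start codon. eIF4B acts on translation, whereas an mRNA level reflects transcription and decay. Yeast transcription is organised in programs with a known regulator and promoter site: Leu3 for branched-chain amino acid synthesis, MBF and SBF for genes of the G1/S transition of the cell cycle, Aft1 for iron uptake, Zap1 for zinc and Pho4 for phosphate. Whether a normalised value was divided by gene length is not given, so levels are compared between genotypes for 1 gene at a time and not between genes. In these bulk cultures, fewer cells expressing a gene and less mRNA per cell cannot be told apart.

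TIF3 itself had an mRNA level of 3.1 in tif3Δ cells and 11.2 in wild-type cells on the log2 scale, a 274-fold lower level. At 15 °C its level was 6.4 in tif3Δ cells and 10.6 in wild-type cells, 18.4-fold lower. The genotype labels were thus matched by the targeted gene at both temperatures.

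Genes specific to the mating types set the experiments at 37 °C and 15 °C apart, under the same strain names. At 37 °C, SAG1, the α-agglutinin of α cells, was 5.4 above the median gene of the table in tif3Δ cells and 1.7 above it in wild-type cells, whereas MFA1, which encodes the pheromone of a cells, was 3.2 below the median gene in tif3Δ cells and 7.9 below it in wild-type cells. At 15 °C each of these genes lay on the other side of the median gene. There SAG1 lay 1.4 below the median gene in tif3Δ cells and 1.3 below it in wild-type cells, and MFA1 lay 1.6 above it in tif3Δ cells and 0.9 above it in wild-type cells. Not every a-specific gene was low at 37 °C: STE2 was 2.5 above the median gene in tif3Δ cells and 1.3 below it in wild-type cells. Over the 7 a-specific genes the median place was -2.2 in tif3Δ cells and -6.1 in wild-type cells at 37 °C. At 15 °C it was 1.6 and 1. Such a place may also depend on gene length, so each gene is set against itself at the other temperature. Values at 15 °C are therefore given below beside those at 37 °C as a second set of libraries whose mating-type genes differ, and not as a replicate.

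Without TIF3, 5329 genes were compared. At a threshold of at least 1.5-fold, 552 genes (10.4%) were higher and 536 (10.1%) were lower in tif3Δ cells. At a threshold of 2-fold the counts were 193 (3.62%) and 175 (3.28%). The median difference was 0, with quartiles of -0.3 and 0.3, and 3239 genes (60.8%) lay within 0.3 of 0. Mating genes made up a small share of these counts: 33 of the 552 higher genes and 0 of the 536 lower genes belonged to the pheromone, a-specific or α-specific lists. The remaining genes are the subject of the following description.

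Footprints were sequenced from other libraries at the same temperature, and went the same way for the genes chosen on mRNA. The median footprint difference was 0.605 over the 516 higher genes with a footprint value, and -0.68 over the 518 such lower genes. Over all 5197 genes with a value, 627 (12.1%) had higher and 685 (13.2%) lower footprints. Footprint numbers follow mRNA levels as well as translation.

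Short stretches of the promoters that bear on the programs described below are shown here, 1 site per gene, because they are the sites of the regulators of branched-chain synthesis and of the G1/S genes. Sequences were read from the R64 reference assembly on the strand of the gene. Capitals mark the Leu3 site (CCG, any 4 bases, CGG) in promoters of branched-chain amino acid genes.
LEU1, chrVII:478850-478879, minus strand: aacgaaaattCCGGGACCGGcgaaatttgc
OAC1, chrXI:216850-216879, plus strand: ccgaaagatgCCGGAAACGGtcttaggccg
BAT1, chrVIII:517375-517404, plus strand: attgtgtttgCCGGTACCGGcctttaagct
ILV2, chrXIII:483606-483635, plus strand: ccggagcctgCCGGTACCGGcttggcttca
ILV5, chrXII:839611-839640, minus strand: gcggtctcctCCGGTACCGGttctgccacc
In the next set, capitals mark the MCB site, ACGCGT, which the factor MBF binds in promoters of G1/S genes.
MCD1, chrIV:444379-444408, plus strand: actcgaggagggACGCGTcgagaaaatcgc
CLB6, chrVII:706887-706916, minus strand: aatagcagttttACGCGTaccacaaaattt
CDC21, chrXV:467730-467759, minus strand: taatatttggtgACGCGTtaaatagaaaaa
RAD27, chrXI:226038-226067, minus strand: cagatccccctaACGCGTttaaagctttta

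The genes of chromosome III were lower in tif3Δ cells as a block. Of its 133 listed genes, 121 had a lower level in tif3Δ cells and 92 (69.2%) were at least 1.5-fold lower, with a median difference of -0.8 and quartiles of -1 and -0.4. On the 15 other nuclear chromosomes between 5.83% and 10.6% of the genes were that much lower, and the medians lay between -0.1 and 0.2. Chromosome III held 92 of the 536 lower genes, or 17.2% of them, and 5 of the 552 higher ones. Away from chromosome III, 547 of 5196 genes (10.5%) were higher and 444 (8.55%) lower.

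**Figure D1:**
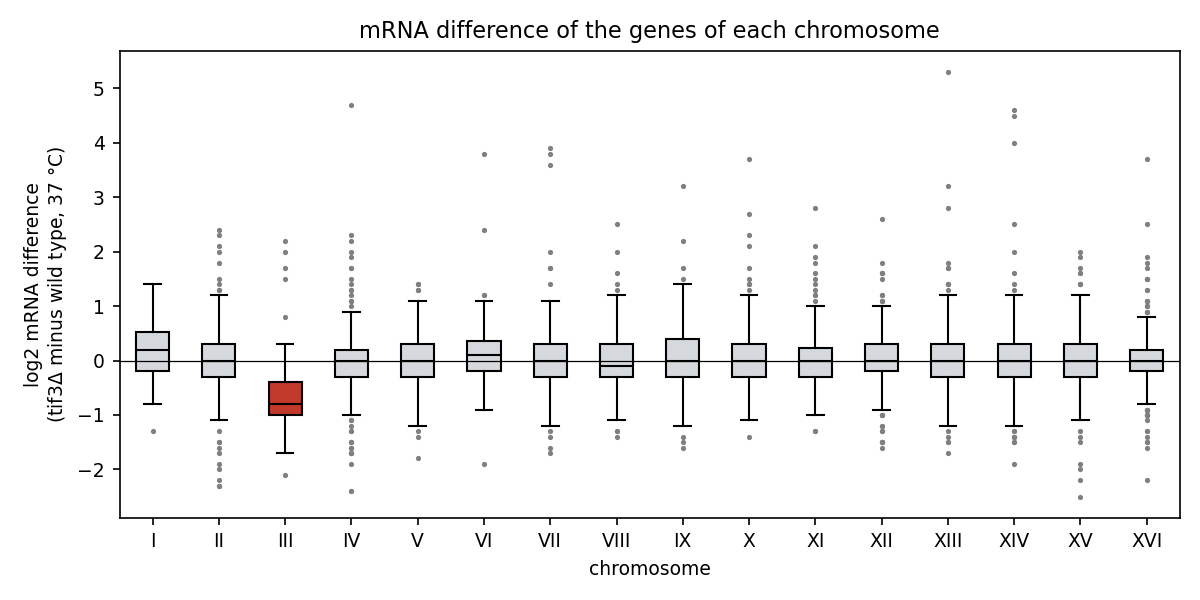
The y axis gives the log2 mRNA difference at 37 °C, tif3Δ minus wild type, for the genes of each of the 16 nuclear chromosomes on the x axis. Boxes span the quartiles with the median as a line, whiskers reach the farthest gene within 1.5 box lengths and points are genes beyond; the box of chromosome III (red) has its median at -0.8, the other medians lie between -0.1 and 0.2.

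Both arms took part. The left arm had 36 of 51 genes lower (median -0.7) and the right arm 56 of 82 (median -0.8). Cut into 7 stretches of 19 genes from left to right, the medians were -0.6, -0.7, -1, -0.9, -0.7, -0.8 and -0.4. The first 8 and last 8 listed genes, next to the chromosome's ends, had a median of -0.15 with 5 of 16 lower.

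The lower genes of chromosome III had unrelated functions. CIT2, the peroxisomal citrate synthase, had a level of 11.5 in tif3Δ cells and 13.6 in wild-type cells. PDI1, the disulfide isomerase of the endoplasmic reticulum, had 11.4 in tif3Δ cells and 12.8 in wild-type cells, and RER1, a sorting receptor of the Golgi, had 7.5 and 9.2. PGK1, the abundant glycolytic enzyme phosphoglycerate kinase, had 14.3 in tif3Δ cells and 15.1 in wild-type cells. High and low levels were thus found among the lower genes of the chromosome.

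Chromosome III also carries the mating-type loci. The row shared by the α1 genes of MAT and HML had 8.9 in tif3Δ cells and 8.7 in wild-type cells. HMLALPHA2 had 10 in tif3Δ cells and 10.1 in wild-type cells, and HMRA2 had 9 and 9.2. These were among the genes of the chromosome that hardly differed, but their copies share reads. The 5 genes that were at least 1.5-fold higher were the mating genes FIG2 (11.6 in tif3Δ cells, 9.4 in wild-type cells), FUS1 (10.6 and 8.6) and KAR4 (10.4 and 8.7), and near the right end PAU3 (5.2 and 3.7) and YCR102C (5.9 and 5.1). Without the mating genes, 92 of 130 genes of chromosome III were lower.

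The same block appeared in the footprints at 37 °C, with a median difference of -0.81 and 82 of 127 genes (64.6%) at least 1.5-fold lower. The mRNA at 15 °C did not show it: the median was 0, and 6 of 127 genes were lower and 8 higher. No value in the tables measures DNA, and the number of copies of chromosome III was not tested. Counts of gene lists below are accordingly also given without chromosome III where it holds members that differed. They are to be read beside the shares over all genes, 10.4% higher and 10.1% lower.

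**Figure D2:**
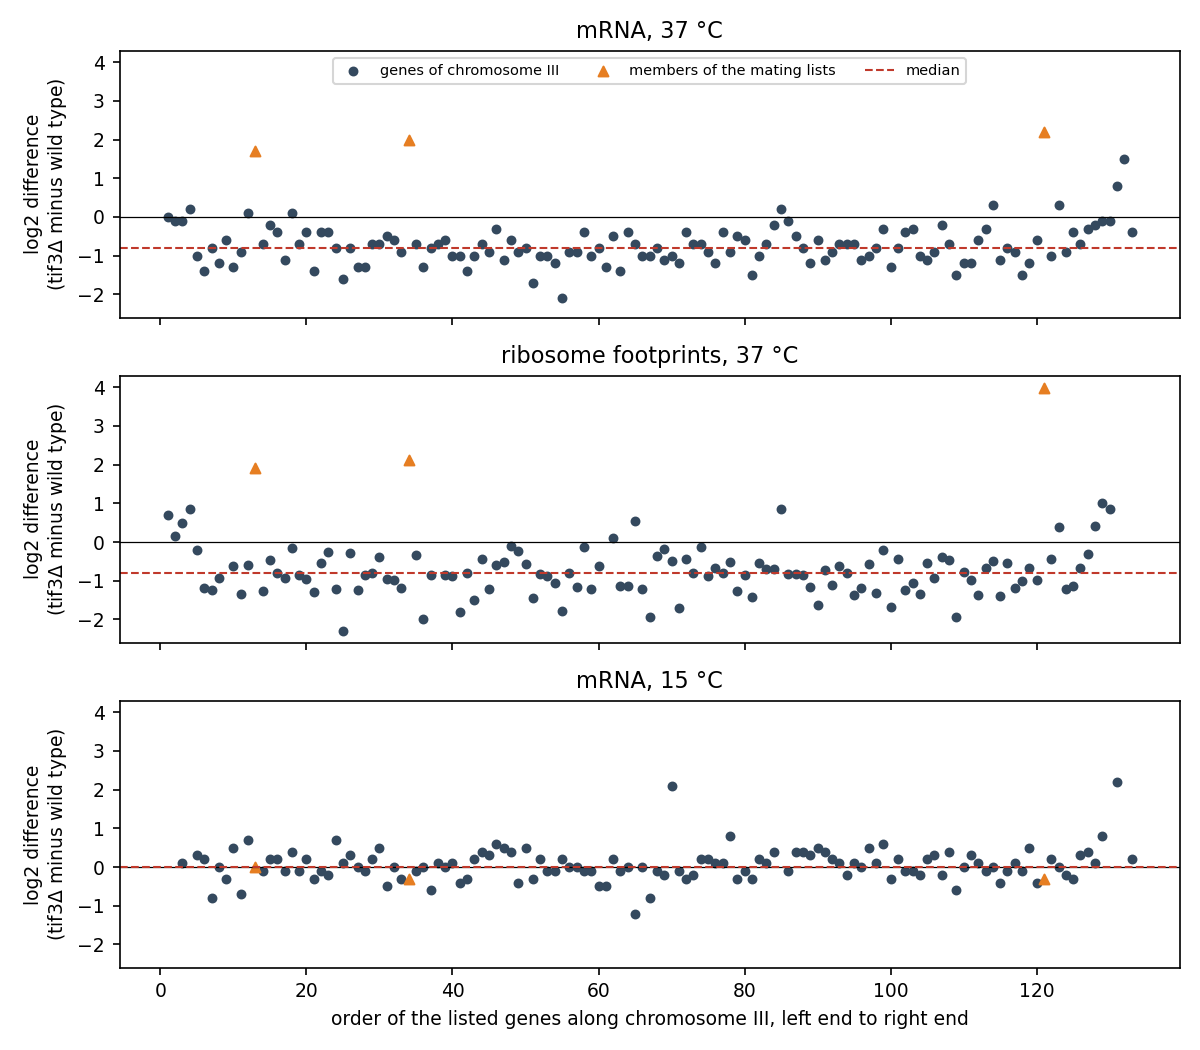
Each panel plots, for the listed genes of chromosome III in their order from left end to right end (x axis), the log2 difference tif3Δ minus wild type (y axis) of mRNA at 37 °C (top), footprints at 37 °C (middle) and mRNA at 15 °C (bottom). Triangles are KAR4, FUS1 and FIG2 of the mating lists and dashed lines the medians, which are -0.8, -0.81 and 0.

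Genes near the ends of the chromosomes were higher more often. Among the 10 listed genes next to each end of the 16 nuclear chromosomes, 94 of 320 (29.4%) were at least 1.5-fold higher and 20 (6.25%) lower, with a median of 0.3. The other nuclear genes had 458 of 5004 higher (9.15%) and a median of 0. Part of this was the PAU family with its relatives TIR and DAN, cell surface mannoproteins known from cells short of oxygen, of which 12 of the 16 near the ends were higher. Without these and the COS family, another repeated family of chromosome ends, and without chromosome III, 80 of 274 genes (29.2%) were higher. Repeated families share reads between their copies.

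Genes near the ends outside these families included large differences. ZRT1, the high-affinity zinc transporter, had 10.1 in tif3Δ cells and 8.4 in wild-type cells. REE1, which takes part in regulating the enolase gene ENO1, had 9 in tif3Δ cells and 7.6 in wild-type cells, and AQY3, an aquaporin-like glycerol channel, had 8.5 and 7.3. BDH1, butanediol dehydrogenase, had 11.3 in tif3Δ cells and 10 in wild-type cells, and lies on chromosome I, where 21 of 84 genes (25%) were higher with a median of 0.2. At 15 °C, 43 of the 282 genes near the ends with a value were higher, against 419 of 5181 genes overall (8.09%).

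The synthesis of leucine, isoleucine and valine had the highest median of the metabolic lists. Of its 12 genes, 8 were at least 1.5-fold higher in tif3Δ cells and 1 lower, and the median was 1.05. LEU1, isopropylmalate isomerase, had 15.5 in tif3Δ cells and 11.9 in wild-type cells, 12.1-fold higher and the largest difference among the 5209 ranked genes outside the mating lists. OAC1, the mitochondrial carrier that exports isopropylmalate, had 12.8 in tif3Δ cells and 10 in wild-type cells. BAT1, the mitochondrial branched-chain transaminase, had 13.4 in tif3Δ cells and 10.9 in wild-type cells. These 3 stood apart from the rest of the list.

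The other enzymes differed less. ILV2, acetolactate synthase, had 12.5 in tif3Δ cells and 11.3 in wild-type cells, ILV5, the reductoisomerase, had 13.6 and 12.5, and ILV3, the dehydratase, had 12.5 and 11.5. LEU4, which makes isopropylmalate, the metabolite that activates Leu3, had 12.2 in tif3Δ cells and 11.1 in wild-type cells. Its paralog LEU9 had 11.1 in tif3Δ cells and 10.8 in wild-type cells, and LEU3, the regulator, had 10 and 9.7, so neither reached 1.5-fold. The cytosolic transaminase BAT2 had 10.5 in tif3Δ cells and 9.6 in wild-type cells.

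Within this list, ILV1, threonine deaminase, had 10.5 in tif3Δ cells and 10.6 in wild-type cells, and the lower member, ILV6, the regulatory subunit of acetolactate synthase, had 10.1 and 11. ILV6 lies on chromosome III, as does LEU2, which is not analysed here. The summed normalised value of the 12 genes was 100202 in tif3Δ cells and 27153 in wild-type cells. In footprints 7 of 12 genes were higher, with differences of 3.11 for LEU1, 2.79 for OAC1 and 2.29 for BAT1. At 15 °C 7 of 12 were higher as well, with a median of 0.6, but LEU1 differed by 0.7, OAC1 by 0.6 and BAT1 by 0.4.

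The Leu3 site printed above was found, on either strand, within 500 bases before the start codon of 7 of the 12 genes (58.3%), against 3.28% of the 6006 promoters of that length. The 7 genes with the site had a median of 1.2 and the 5 without it 0.3. Among all 173 listed genes with the site, 44 (25.4%) were higher and 18 (10.4%) lower, with a median of 0.1. LEU1, OAC1, BAT1, ILV2, ILV5 and BAT2 hold it and were at least 1.5-fold higher; LEU9 holds it and differed by 0.3. The match of letters is a description and does not show binding.

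**Figure D3:**
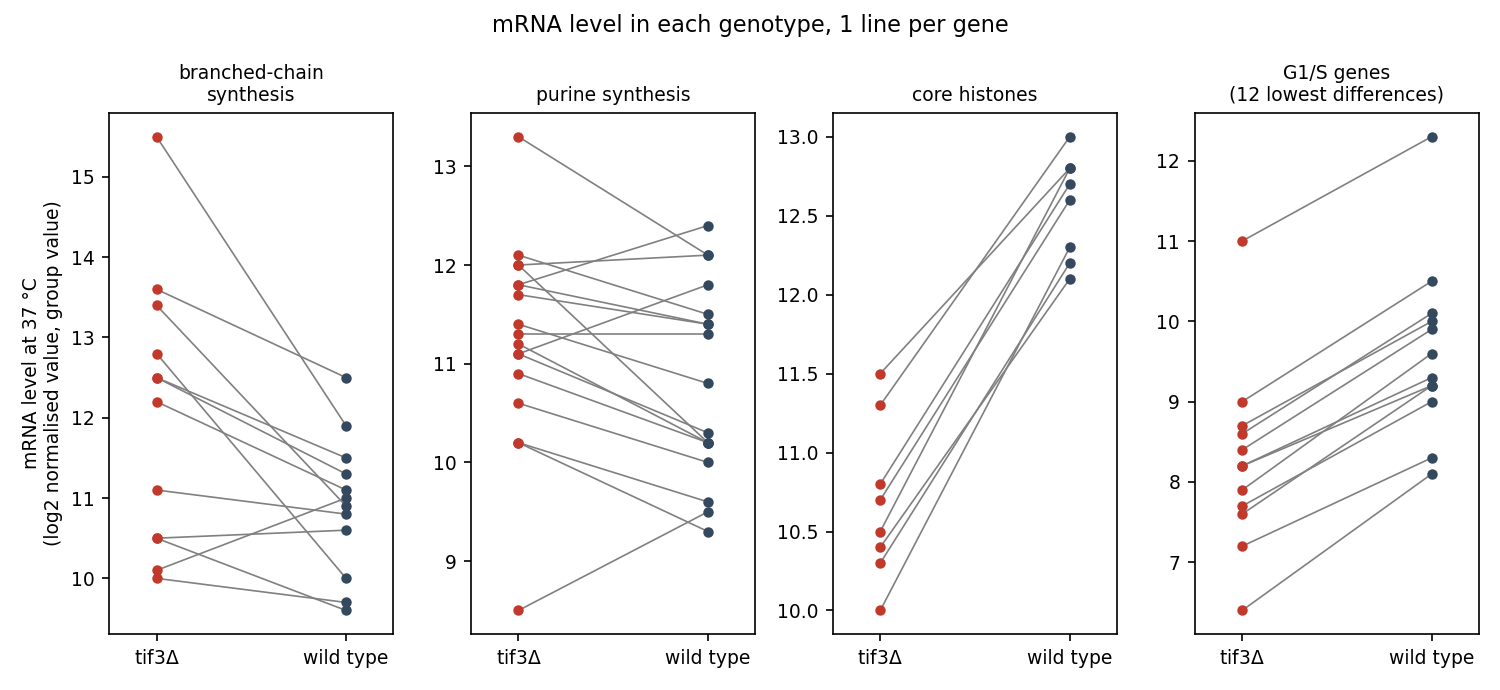
Each line joins the log2 mRNA level at 37 °C of 1 gene in tif3Δ cells (left, red) and wild-type cells (right, dark), for branched-chain synthesis (12 genes), purine synthesis (17), the core histones (8) and the 12 G1/S genes with the lowest differences; the y axes differ. LEU1 is the top line of the first panel, 15.5 against 11.9, and all 8 histone lines lie lower in tif3Δ cells.

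Other amino acid programs differed less. Of 9 arginine genes 4 were higher and 0 lower (median 0.3), with ARG3, ornithine carbamoyltransferase, at 9.7 in tif3Δ cells and 8.5 in wild-type cells. The Gcn4 site TGACTCA was in 8 of their 9 promoters, against 4.01% of all promoters. Of the 6 lysine genes 0 were higher and 2 were lower, both homocitrate synthases: LYS20 had 10.2 in tif3Δ cells and 11.1 in wild-type cells, and LYS21 had 10.6 and 11.2. The 6 histidine genes had 0 calls in either direction, and of 11 aromatic genes 1, ARO1, was higher. GCN4 mRNA itself was at 13.1 in tif3Δ cells and 12.6 in wild-type cells. Members of the histidine and aromatic lists, where sites of this general activator were not counted, thus stayed within 1.5-fold, apart from ARO1. The Gcn4 site was also in 8 of the 12 branched-chain promoters, and the median there was 1.05 both with and without it. Among all 221 listed genes with the Gcn4 site, 13.6% were higher and 5.43% lower. The part of Gcn4 in these differences was not tested.

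In the sulfur and methionine list of 18 genes, 3 were higher and 1 lower. SAM1, which makes S-adenosylmethionine, had 10.5 in tif3Δ cells and 8.9 in wild-type cells, while its near copy SAM2 had 8.4 and 8.9. MET6, methionine synthase, had 11.4 in tif3Δ cells and 10 in wild-type cells. At 15 °C MET6 went the other way, with 9.5 in tif3Δ cells and 11 in wild-type cells.

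Genes of purine synthesis were divided by branch. Of 17 genes 10 were higher and 3 lower, with a median of 0.6. ADE17, which completes the purine ring, had 12 in tif3Δ cells and 10.2 in wild-type cells. SHM2, the cytosolic serine hydroxymethyltransferase that supplies one-carbon units, had 13.3 in tif3Δ cells and 12.1 in wild-type cells, and ADE4, the first enzyme of the pathway, had 11.2 and 10.2. The 3 lower genes all encode IMP dehydrogenase, the first step towards GTP: IMD2 had 8.5 in tif3Δ cells and 9.5 in wild-type cells, IMD3 had 11.1 and 11.8, and IMD4 had 11.8 and 12.4. The IMD genes are near copies and can share reads.

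Footprints of the purine genes followed, with 8 higher and 3 lower, ADE17 at 2.06 and IMD4 at -1.95. At 15 °C the list had 1 gene higher and 6 lower, with a median of -0.3. ADE17 there was at 10.1 in tif3Δ cells and 11.1 in wild-type cells.

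The histone genes were lower as a group. All 8 core histone genes, which encode the proteins of the nucleosome and are transcribed in S phase, were at least 1.5-fold lower in tif3Δ cells, with a median of -1.9. HTA2 had 10 in tif3Δ cells and 12.3 in wild-type cells, and HHF1 had 10.5 and 12.8. HTB2 (10.3 in tif3Δ cells, 12.2 in wild-type cells), HTA1 (10.8 and 12.7) and HHF2 (10.7 and 12.6) differed by -1.9 each. HTB1 had 10.4 in tif3Δ cells and 12.1 in wild-type cells, HHT1 had 11.3 and 13, and HHT2 had the smallest difference, 11.5 against 12.8. Every histone gene was thus below its wild-type level, over a range of -2.3 to -1.3.

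Summed over the 8 genes, the normalised value was 13948 in tif3Δ cells and 49455 in wild-type cells. Footprints gave a median of -1.52 and 8 of 8 lower. At 15 °C the median was 0.2, and 0 of 8 were higher or lower. The histone genes are short, and centring on genes of like length moved their median to -1.7.

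Genes of the G1/S transition were lower as well, 27 of 42 with 1 higher, and a median of -0.75. MCD1, the cleavable cohesin subunit, had 7.9 in tif3Δ cells and 9.6 in wild-type cells. CLB6, an S-phase cyclin, had 6.4 in tif3Δ cells and 8.1 in wild-type cells, and TOS4, a protein with a forkhead-associated domain, had 7.6 and 9.2. Among replication genes, POL30, the sliding clamp, had 8.4 in tif3Δ cells and 9.9 in wild-type cells. RNR1, the large subunit of ribonucleotide reductase, had 11 in tif3Δ cells and 12.3 in wild-type cells. The lower genes spanned cyclins, cohesin, polymerase and repair genes.

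Of the G1 cyclins, CLN1 had 8.2 in tif3Δ cells and 9.3 in wild-type cells, CLN2 had 10 and 10.6, and PCL1 had 9 and 10.5. Their activator SWI4, the DNA-binding subunit of SBF, had 9.4 in tif3Δ cells and 9.1 in wild-type cells. PCL2, the 1 higher gene, had 9.9 in tif3Δ cells and 8.8 in wild-type cells, and is also in the pheromone list. Without the 2 members on chromosome III, HCM1 and MRC1, 25 of 40 genes were lower with a median of -0.7.

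Footprints had 28 of the 42 G1/S genes lower, with a median of -0.86. The 15 °C mRNA went the same way for this list, with 20 of 42 lower, 0 higher and a median of -0.5, beside 7.33% lower among all genes. CLB6 there had 2.8 in tif3Δ cells and 4.8 in wild-type cells, and MCD1 had 5.9 and 7.2. In contrast to the histones, low levels of G1/S genes were therefore seen in both sets of libraries.

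The MCB site was in 27 of the 42 promoters (64.3%), against 5.43% of all promoters. Its presence did not separate the genes of the list: the median was -0.7 with the site and -0.8 without it. Among all 293 listed genes with the site in their promoter, 71 were lower and 21 higher.

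Later phases of the cell cycle gave 2 directions. Of 15 G2/M genes 7 were lower and 0 higher (6 of 14 lower without chromosome III; median -0.4, or -0.7 when centred on genes of like length), with CLB1, a mitotic cyclin, at 9.1 in tif3Δ cells and 10.7 in wild-type cells and CLB2 at 8.4 and 9.2. Of 15 M/G1 genes 9 were higher and 0 lower (median 0.6). CHS1, a chitin synthase used in repair after division, had 12.1 in tif3Δ cells and 10.5 in wild-type cells, AMN1, an antagonist of mitotic exit, had 11.8 and 10.4, and ASH1, the daughter-cell repressor of HO, had 11.2 and 10. SIC1, the inhibitor of S-phase cyclin kinase, had 9.5 in tif3Δ cells and 8.9 in wild-type cells. The mRNA calls of the G2/M and M/G1 lists each went in 1 direction, whereas footprints at 37 °C did not all follow. In the G2/M list, footprint differences were -1.45 for CLB1 but 0.88 for DBF2. In the M/G1 list, they were 1.01 for CHS1 but 0.08 for AMN1 and -1.62 for PRY3. Among 13 genes of the MCM helicase and origin licensing, MCM5 (10.2 in tif3Δ cells, 9.2 in wild-type cells) and MCM3 (10.2 and 9.4) were higher and 0 lower. The median of this list was 0.3, or 0.1 when centred on genes of like length. Over all genes 10.4% were higher, so these few calls are not read as a shift of the list.

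Genes of the mating response moved with the cell-cycle genes at 37 °C. The pheromone list of 37 genes had 29 higher and 0 lower (26 of 34 higher without chromosome III), and its summed normalised value was 80838 in tif3Δ cells and 21576 in wild-type cells. The 4 α-specific genes summed to 43963 in tif3Δ cells and 7320 in wild-type cells, and the 7 a-specific genes to 3943 and 586. FAR1, which inhibits G1 cyclin kinase in cells that sense pheromone, had 12.1 in tif3Δ cells and 10 in wild-type cells. At 15 °C the pheromone list had a median of -0.1 with 2 genes higher and 2 lower, while the G1/S genes were lower there too. The part of the mating response in the cell-cycle differences at 37 °C was not tested.

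HO, the endonuclease of mating-type switching, was the 1 lower member of the 10 haploid-specific genes, of which 6 were higher. It had 7.4 in tif3Δ cells and 9.8 in wild-type cells at 37 °C, and 5 and 7.5 at 15 °C. Its footprints at 37 °C differed by -2.49. HO is transcribed by SBF in G1 and repressed by Ash1.

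Repair genes outside the G1/S list were lower in part, 5 of 11 with 1 higher. PLM2 had 6.9 in tif3Δ cells and 8.2 in wild-type cells. RNR2, a small subunit of ribonucleotide reductase, had 10.6 in tif3Δ cells and 11.3 in wild-type cells, and RNR3, the subunit most induced by DNA damage, had 6.5 and 7.1. HUG1, another strongly damage-induced gene, had 5.8 in both. The 1 higher gene was PHR1, the photolyase, also induced by damage, with 7.7 in tif3Δ cells and 6.9 in wild-type cells. Damage-induced genes thus differed in both directions.

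**Figure D4:**
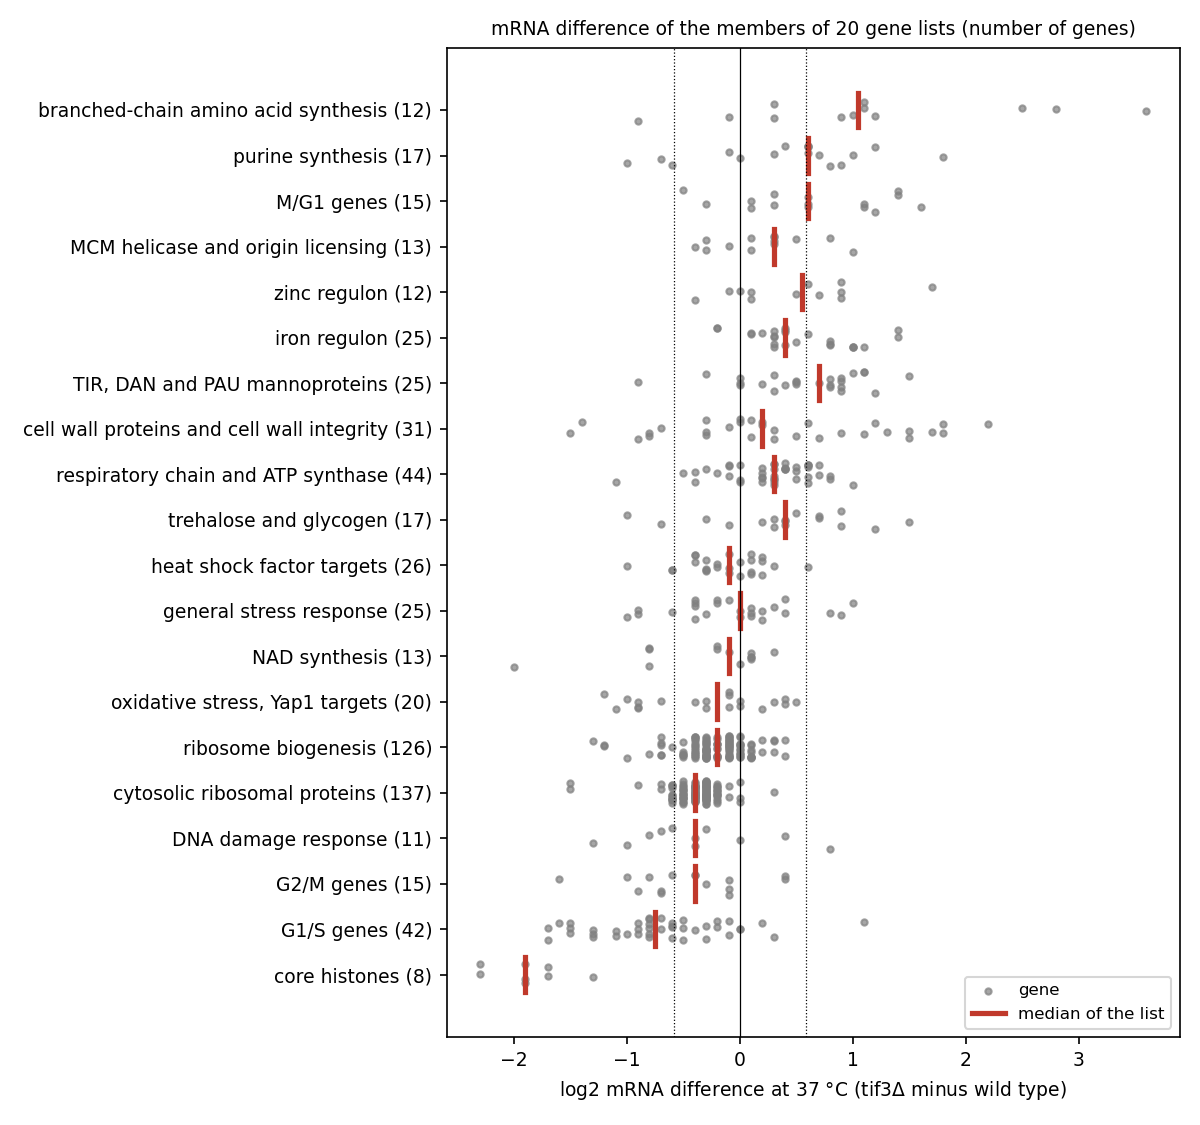
Grey points are the members of 20 gene lists (numbers of genes in parentheses) at their log2 mRNA difference at 37 °C, tif3Δ minus wild type (x axis), spread vertically for visibility, and red bars the list medians. Dotted lines mark 1.5-fold either way; branched-chain synthesis has the highest median at 1.05 and the core histones the lowest at -1.9, while ribosomal protein genes (-0.4) and ribosome biogenesis genes (-0.2) lie close together.

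Genes of iron and zinc uptake were higher in part. Of 25 iron genes 10 were higher and 0 lower, with a median of 0.4, and 23 lay above 0. FIT2, a cell wall protein that retains siderophores, had 8.7 in tif3Δ cells and 7.3 in wild-type cells. SIT1 (10.2 in tif3Δ cells, 9.1 in wild-type cells), ENB1 (10.5 and 9.5) and ARN1 (9.9 and 8.9), transporters of siderophore-bound iron, and FET3, the multicopper oxidase of high-affinity uptake (12.3 and 11.3), came next. FRE5, at low levels, had 4.8 in tif3Δ cells and 3.4 in wild-type cells. FTR1, the permease that works with Fet3, had 11.1 in tif3Δ cells and 11.3 in wild-type cells, and was 1 of the 2 members below 0.

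At 15 °C 13 of 24 iron genes were higher and 0 lower, with a median of 0.6, and in footprints at 37 °C 11 of 22 were. FET3 had a difference of 1.5 and FTR1 of 0.9 at 15 °C. The Aft1 site TGCACCC was in 19 of 25 promoters (76%), against 2.33% of all. All 10 higher genes hold it, and the 6 without it had a median of 0.3.

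Of 12 zinc genes 6 were higher and 0 lower, with a median of 0.55. ZRT1, named above, had a footprint difference of 3.93. The low-affinity transporter ZRT2 had 11.3 in tif3Δ cells and 10.4 in wild-type cells, the regulator ZAP1 had 9.4 and 8.7, and FET4, a low-affinity transporter of iron and zinc, had 9.9 and 9. ZRT3, the vacuolar exporter, had 9.9 in tif3Δ cells and 9.8 in wild-type cells. The plasma membrane transporters of this list thus had larger differences than the vacuolar exporter. The 8 copper genes had 0 higher and 1 lower: SOD1, the copper-zinc superoxide dismutase, had 11.2 in tif3Δ cells and 12 in wild-type cells.

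In the phosphate regulon of 16 genes 3 were higher and 0 lower. PHO84, the high-affinity phosphate transporter, had 8.5 in tif3Δ cells and 5.3 in wild-type cells, 9.19-fold higher. SPL2, which limits low-affinity phosphate uptake, had 4.7 in tif3Δ cells and 3.3 in wild-type cells, and PHO89, a sodium-coupled transporter, had 4.8 and 3.6; its footprint difference was -0.2. The permease GIT1 had 6.2 in tif3Δ cells and 6.3 in wild-type cells. The secreted acid phosphatase PHO5 had 9.5 in tif3Δ cells and 9.6 in wild-type cells. PHO84, SPL2 and PHO89 were thus the 3 higher genes, and the other members named did not reach 1.5-fold. SPL2 and PHO89 were at low levels, near the lowest mean of the data, 17.3 before the log2 scale.

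Vitamin and cofactor genes were mixed. SNO1 and SNZ1, a divergent pair for pyridoxine synthesis, were higher at both temperatures: SNO1 had 8.2 in tif3Δ cells and 5.4 in wild-type cells at 37 °C, and 5.7 and 1.7 at 15 °C. SNZ1 had 10 in tif3Δ cells and 8.3 in wild-type cells at 37 °C, and 8.8 and 6.4 at 15 °C. Their near copies SNZ2 and SNZ3 each had 7.4 in tif3Δ cells and 8.1 in wild-type cells. BIO2, biotin synthase, had 7.8 in tif3Δ cells and 8.8 in wild-type cells. The list of 25 thiamine, pyridoxine and biotin genes had 4 higher and 4 lower in all, and 3 of 24 lower without chromosome III.

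Of 13 NAD synthesis genes 4 were lower and 0 higher. BNA4, kynurenine monooxygenase, had 7.9 in tif3Δ cells and 9.9 in wild-type cells, with a footprint difference of -2.02. BNA1 (8.7 in tif3Δ cells, 9.5 in wild-type cells) and BNA5 (9.4 and 10.2) of the same tryptophan-dependent route and TNA1, the nicotinic acid permease (11 and 11.8), were each 0.8 lower. The salvage enzymes NPT1 (10.6 and 10.5) and PNC1 (10.6 and 10.5) hardly differed. The lower genes thus belonged to synthesis from tryptophan and to uptake, but other BNA genes and another transporter hardly differed. BNA7 had 8.2 in tif3Δ cells and 8.4 in wild-type cells, BNA6 had 9.4 and 9.5, and BNA3 had 8.4 in both. The transporter NRT1 had 9.3 in tif3Δ cells and 9.5 in wild-type cells. Among 9 genes of the retrograde response, CIT2, named above, and DLD3 (11.9 in tif3Δ cells, 12.6 in wild-type cells) were lower. Without chromosome III 1 of 8 was lower and the median was 0.1.

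Cell wall genes differed in both directions. Of 31 genes 12 were higher and 6 lower, with a median of 0.2. PST1, a GPI-anchored protein induced by cell wall damage, had 12.4 in tif3Δ cells and 10.2 in wild-type cells. NCW2 had 10.5 in tif3Δ cells and 8.7 in wild-type cells, PIR3 had 9.7 and 7.9, and HSP150, an abundant PIR protein, had 14.7 and 13. SLT2, the mitogen-activated kinase of the cell wall integrity pathway, had 11 in tif3Δ cells and 9.8 in wild-type cells. RLM1, the transcription factor it activates, had 10.2 in tif3Δ cells and 9.1 in wild-type cells, and PRM5, a target of Rlm1, had 10.4 and 8.9. SLT2, RLM1 and PRM5, named for their role after their values were seen, were thus all higher. Other targets of the pathway were not examined as a set.

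The 6 lower wall genes were others. GAS3 had 9.6 in tif3Δ cells and 11.1 in wild-type cells and TOS6 had 7.9 and 9.3. CWP2, a major mannoprotein, had 12.6 in tif3Δ cells and 13.5 in wild-type cells, ECM33 had 12.6 and 13.4, CIS3 had 11.5 and 12.3, and GAS1, the glucan-elongating enzyme, had 12.6 and 13.3. In footprints 11 of the 31 genes were higher and 10 lower. At 15 °C 2 were higher and 2 lower, and PST1 had 8.7 in tif3Δ cells and 9 in wild-type cells. Pheromone also induces wall genes, and the pheromone list was higher in these libraries; its part was not tested.

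Of the 25 TIR, DAN and PAU mannoproteins 13 were higher and 1 lower, with a median of 0.7, and without chromosome III 12 of 24 were higher. PAU3 and PAU4 (6.9 in tif3Δ cells, 5.7 in wild-type cells) had the largest differences and TIR1 the lowest, 5.5 against 6.4. Only 5 of the 25 had a footprint value, and several PAU rows share all their values. Of 11 genes of flocculins and filamentous growth 4 were higher and 0 lower. TEC1, the filamentation transcription factor, had 11.8 in tif3Δ cells and 9.5 in wild-type cells, and its partner STE12, shared with mating, had 11.1 and 9.5. FLO9 and FLO1, near-identical flocculins, had 9.2 and 9.4 in tif3Δ cells and 8.4 and 8.7 in wild-type cells.

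Genes of ribosomal proteins shifted little but in 1 direction. Of 137 genes 133 were below 0, with a median of -0.4, and 17 were at least 1.5-fold lower (16 of 136 without chromosome III) while 0 were higher. Over all genes 10.1% were that much lower. RPL41A and RPL41B, paralogs that encode the smallest ribosomal protein, were lowest, with 8.6 and 8.7 in tif3Δ cells and 10.1 and 10.2 in wild-type cells. RPS14A, on chromosome III, had 11.8 in tif3Δ cells and 12.7 in wild-type cells, whereas RPS14B on another chromosome had 11.9 and 11.6 and was the highest of the list. Paralogs can share reads, and centring on genes of like length moved the median to -0.2.

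Footprints of the same genes had a median of 0.07, with 1 higher and 1 lower. At 15 °C the mRNA median was 0.6 and 84 of 137 were higher, with 0 lower. Of 126 genes of ribosome biogenesis 11 were lower and 0 higher (median -0.2), and 6 of the 11 lie on chromosome III. The lower count was below the share of all genes, 10.1%. DBP2, a helicase gene with other roles in RNA metabolism, was lowest, with 9.3 in tif3Δ cells and 10.6 in wild-type cells.

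Nuclear genes of the respiratory chain and ATP synthase were higher in part, 11 of 44 with 1 lower, and had a median of 0.3, or 0.5 when centred on genes of like length. QCR2, a core subunit of the cytochrome bc1 complex, had 10.5 in tif3Δ cells and 9.5 in wild-type cells. NDI1, the internal NADH dehydrogenase, had 9.4 in tif3Δ cells and 8.6 in wild-type cells, and ATP2, a catalytic subunit of ATP synthase, had 12.2 and 11.5. CYC1, the main cytochrome c, went the other way, with 7 in tif3Δ cells and 8.1 in wild-type cells. In footprints 28 of the 44 were higher and 2 lower, with a median of 0.735. The respiratory genes were thus higher in more cases in footprints than in mRNA.

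Stores of carbohydrate gave 6 higher and 2 lower of 17 genes of trehalose and glycogen, with a median of 0.4. GPH1, glycogen phosphorylase, had 10.3 in tif3Δ cells and 8.8 in wild-type cells, and GSY1, a glycogen synthase, had 8.1 and 6.9. GLG2, a glycogenin, was lowest, with 7.2 in tif3Δ cells and 8.2 in wild-type cells. These genes are long, and centring on genes of like length moved the median to 0.1. Footprints had 1 higher and 3 lower.

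Length went with the mRNA difference over the whole table. Spearman's rho between gene length, from start to stop codon with introns, and difference was 0.310 over 5327 genes, which share the same libraries. In the tenth of shortest genes (median 366 bases) 18.6% were lower and 8.63% higher, and in the tenth of longest genes (median 3537 bases) 4.69% were lower and 18.4% higher. The quality of the RNA was not measured, and its part in this relation was not tested.

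Temperature-related genes differed little between genotypes at 37 °C. Of 26 heat shock factor targets 1 was higher and 3 lower, with a median of -0.1. The disaggregase HSP104 had 12.1 in tif3Δ cells and 11.8 in wild-type cells, the chaperone SSA4 had 9.2 and 9.6, and HSP26, a small heat shock protein, was lowest, 8.4 against 9.4. The general stress list of 25 had 3 higher and 4 lower with a median of 0. The cytosolic catalase CTT1 had 9 in tif3Δ cells and 8.8 in wild-type cells.

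Several complexes had 0 calls: the 33 proteasome genes (median -0.2), the 8 genes of the chaperonin TRiC (-0.15) and the 20 aminoacyl-tRNA synthetases (-0.05). Among 28 initiation factors 1 was lower and 0 higher. The lower one was TIF11, the gene of eIF1A, with 9.8 in tif3Δ cells and 10.4 in wild-type cells. DED1, a helicase of scanning, had 10.3 in tif3Δ cells and 10.4 in wild-type cells, TIF4631, an eIF4G gene, had 11.4 and 11.2, and TIF2, an eIF4A gene, had 13.2 and 13.4. Levels of the partners of eIF4B were thus within 1.5-fold. Of 14 genes of the unfolded protein response 1 was lower, PDI1 on chromosome III.

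Of 20 Yap1 targets, many of them antioxidant genes, 7 were lower, 0 higher and 13 within 1.5-fold (median -0.2). The thioredoxins TRX1 (8.5 in tif3Δ cells, 9.7 in wild-type cells) and TRX2 (9.1 and 10.2) and the peroxiredoxins AHP1 (12 and 13) and TSA1 (11.9 and 12.8) were among the lower genes, while the reductase TRR1 had 10.8 and 10.9. MXR1, methionine sulfoxide reductase, had 5.2 in tif3Δ cells and 7 in wild-type cells at 37 °C, and 4.8 and 6.5 at 15 °C. Footprints of the thioredoxins differed by -0.71 and -0.56.

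Genes of meiosis and sporulation, which are at low levels in growing cells, gave 9 lower and 1 higher of 24. Calls were more common at low levels. In the tenth of genes with the lowest mean mRNA level, 22.1% were lower and 17.1% higher, against 10.1% and 10.4% over all genes. SPS4 had the lowest difference of all ranked genes, with 4 in tif3Δ cells and 6.5 in wild-type cells. SPR28, a sporulation septin, had 2.9 in tif3Δ cells and 5.3 in wild-type cells, and MUM3, needed for the spore wall, had 4.7 and 6.7. IME1, the master activator of meiosis, had 6.3 in tif3Δ cells and 7.1 in wild-type cells.

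Other genes with large differences belonged to none of these programs. QDR2, a plasma membrane drug and potassium transporter, had 11.9 in tif3Δ cells and 8.7 in wild-type cells, 9.19-fold higher, with footprints 2.42 higher. VID24, a subunit of the ligase that degrades gluconeogenic enzymes, had 9.8 in tif3Δ cells and 7.4 in wild-type cells. AIM17 had 10.4 in tif3Δ cells and 8.4 in wild-type cells, and MAL33, a maltose activator, had 7.8 and 5.8. GAC1, a regulatory subunit of protein phosphatase 1, had 7.4 in tif3Δ cells and 5.4 in wild-type cells. RTA1, a membrane protein of the drug resistance list, had 6.5 in tif3Δ cells and 4.5 in wild-type cells. Each was at least 4-fold higher.

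The remaining ranked genes were less well characterised or low. YJL213W had 9.8 in tif3Δ cells and 7.5 in wild-type cells. YDR124W had 8.5 in tif3Δ cells and 6.5 in wild-type cells and footprints 3.83 higher, and DDI3 had 5.8 and 3.3. DDI3 shares nearly all its sequence with DDI2, which had 5.7 in tif3Δ cells and 3.3 in wild-type cells. On the low side, ALT2, an alanine transaminase homolog, had 7.8 in tif3Δ cells and 9.5 in wild-type cells, with a footprint difference of -2.35. AMF1, an ammonium transporter, had 4.4 in tif3Δ cells and 6.3 in wild-type cells. Of the 15 genes with the lowest differences, 1, CIT2, lay on chromosome III.

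Genes that differed at both temperatures were a minority. Of the higher genes 111 were also higher at 15 °C, 21.4% of the 518 with a value there and 26.5% of the 419 higher at 15 °C. Of the lower genes 112 were also lower at 15 °C, 22.05% of 508 and 29.5% of 380. Another 25 higher genes and 35 lower genes were past 1.5-fold in the opposite direction at 15 °C. Of all genes with a value at 15 °C, 8.09% were higher there and 7.33% lower. The overlaps in the same direction lay above these shares, and those in the opposite direction below them. Spearman's rho between both differences was 0.152 over 5181 genes. These 2 experiments share no libraries.

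The genes below were picked from this overlap after their values were seen, from among those with large differences at both temperatures. Not all such genes are named. SNO1, SNZ1 and YJL213W led the higher genes. ARO10 and ARO9, of the Ehrlich pathway that degrades aromatic amino acids, had 10 and 10.3 in tif3Δ cells and 8.5 and 9.1 in wild-type cells at 37 °C, and differences of 2.6 and 1.8 at 15 °C. MCH4, a monocarboxylate permease homolog, had 10.6 in tif3Δ cells and 8.7 in wild-type cells, with a difference of 1.4 at 15 °C. MTH1, a repressor of hexose transporter genes, had 7.7 in tif3Δ cells and 6 in wild-type cells, and HXT4, a hexose transporter, had 9.4 and 8.2; they were 1.2 and 1.6 higher at 15 °C. HO, MXR1, CLB6, OPT2 (5.8 in tif3Δ cells, 7.4 in wild-type cells), MCD1 and TOS4 were among the lower genes with large differences.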

How the data were processed

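Ribosome footprints and mRNA were sequenced from tif3Δ and wild-type yeast, 2 libraries in each of 8 groups. Per the file headers, the authors deposited log2 normalised values, 1 per gene and group, and their own log2 differences; no single library, count or depth is given, and how the 2 libraries were combined and how reads were assigned and normalised are not given in the sources used here. Per the submitters' processing notes, the tools were DESeq, TopHat2 2.0.7, CASAVA 1.8 and Bowtie2 2.0.6, and the genome build was sacCer2. Groups came from the labels. The mRNA difference was recomputed as tif3Δ minus wild type and differed from the authors' by at most 0.0991. The planned linear or count models need single libraries and were not run, so p-values, intervals and floors are not given; calls are differences of at least 1.5-fold. Gene lists and named genes were chosen with earlier results of these data known. The named genes are TIF3, the 15 highest and 15 lowest genes with a mean of at least 32 outside the mating lists, the extreme members of each list, the called members of short lists, the histones and the genes whose sites are printed; other named genes, among them the complete members of some longer lists, genes of chromosome III and of chromosome ends, FAR1, and list members named for their role, were chosen after their values were seen. Footprint differences were used where both groups had footprints. The files hold no coordinates: gene names, order, lengths and promoters (500 bases before the start codon) come from RefSeq's R64 assembly, matched by systematic name for 5328 genes. Motifs were searched on both strands. Calculations used Python 3.11.15 with pandas 2.3.3 and were tested on simulated data. Alternatives were the minimum level, the authors' difference, and centring by gene, length, level or chromosome.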

Additional observations from a re-analysis of the deposited data

Results flagged for a closer look

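The list of mitochondrially encoded genes, which held only ATP6, COX3 and OLI1, drew attention. All of them went one way at 37 °C and the other way at 15 °C. Their median mRNA difference was -0.7 at 37 °C and 0.7 at 15 °C. COX3, a subunit of cytochrome oxidase, had 5 in tif3Δ cells and 5.7 in wild-type cells at 37 °C, and ATP6, of the ATP synthase, had 4.5 and 5.3. These levels are low. Over all 5 mitochondrial genes of the 37 °C data the median was -0.5. Footprints at 37 °C did not all follow, with differences of 0.73 for ATP6, 0.34 for COX3 and -1.02 for OLI1. The difference between temperatures was not tested.

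The α-specific genes were flagged as well, with a median of 2.9 over 4 genes at 37 °C and -0.65 over the 2 genes listed at 15 °C. At 15 °C STE3 was low, with 3.2 in tif3Δ cells and 4.4 in wild-type cells, and SAG1 hardly differed, with 5.9 and 6. The difference between temperatures was not tested for this list either.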

How the results depend on the processing

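No paired analysis was possible because the tables hold 1 pooled value per group; leaving out a replicate, a replicate block and DESeq2 could not be run for the same reason. Under the alternatives run, the count of higher genes ranged from 477 to 577 around 552 and that of lower genes from 444 to 536 around 536, with the smallest counts at a minimum mean of 100 (477) and without chromosome III (444). The median of chromosome III lay between -0.8 and -0.7 and its number of lower genes between 85 and 93. The authors' unrounded difference gave 490 higher and 479 lower genes; the rounded values move a difference by up to 0.0991. The settings without chromosome III and centred on the chromosome median were added after the data were seen. Of the medians of the 57 lists, centring by length moved 11, a minimum of 100 moved 5, centring by chromosome moved 3, and the others run moved at most 2. Of the differences of the 15 highest and 15 lowest ranked genes, centring by length moved 11 and centring by chromosome moved 1. The mRNA depth is unknown, and low genes, shared reads and the lack of replicate values limit single differences.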
